A study of Mus musculus with 12 samples.

Results

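Lymphoid priming genes are 9 genes that early haematopoietic progenitors switch on when they lean towards the B cell and T cell lineages: Satb1, Ikzf1, Ikzf3, Tcf3, Notch1, Dntt, Rag1, Rag2 and Ccr9. These genes and the gene lists below were chosen by name, with earlier results of these data known. Their counts beside those of all genes are therefore descriptions. Values came from probe sets to which the platform annotation gives the gene's symbol alone, and the brightest such probe set of a gene was used. Of the 9 genes, 8 had such a probe set, among 22180 genes with one in the whole array. Rag1 is measured only by a probe set that also carries another gene's name, so no value is given for it. A level was taken as measured above the dim range of the array when it exceeded the 40th percentile of all values, 5.29 on the log2 scale, in at least 3 of the 12 arrays. This held for Satb1, Ikzf1, Ikzf3, Tcf3, Notch1 and Dntt, and for 15348 genes in all. Rag2 exceeded the limit in 1 array and Ccr9 in 0 arrays, so these 2 genes are described by their values and were not tested.

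The cells were LSK cells, bone marrow cells that carry SCA1 and cKIT and lack markers of B cells (B220), T cells (CD3, CD4, CD8a), myeloid cells (CD11b, GR1) and red cells (TER119), from the femurs of mice older than 20 months. The 4 groups of 3 arrays each were NIPA KO cells given 4 Gy, NIPA KO cells left untreated, NIPA WT cells given 4 Gy and NIPA WT cells left untreated, all from mice backcrossed to C57BL/6 for at least 10 generations. Each array held pooled cells of 3 mice, cultured with 30% serum, IL-3 and IL-6 at 10 ng/ml and SCF at 50 ng/ml, with a stated culture of 30 min and harvest at 3 h. The labels do not say whether the irradiated and untreated arrays of a genotype came from the same pools, so p-values measure the spread between these arrays.

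Entry into the lymphoid lineages is gradual. Ikaros, encoded by Ikzf1, and the E proteins encoded by Tcf3 open lymphoid genes already in multipotent progenitors, and SATB1 organises chromatin at such genes. Notch1 is the receptor whose signal commits progenitors to the T cell fate. RAG1 and RAG2 cut antigen receptor genes during V(D)J recombination, and TdT, the product of Dntt, adds bases at the cut ends. CCR9 guides progenitors to the thymus. In bulk arrays such as these, fewer cells of a type and less RNA per cell cannot be told apart.

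Zc3hc1, the gene of NIPA, was between 5.61 and 5.82 in the 6 KO arrays and between 7.67 and 8.47 in the 6 WT arrays, so the genotype labels held in every array. The labels do not say which part of the gene is missing. Of 10 markers of stem cells and LSK cells, 8 had a named probe set and all 8 were above the brightness limit. Kit, the gene of the sorting marker cKIT, lay between 9.97 and 11.32. Mecom and Procr had the widest ranges of the 8, from 7.57 to 9.93 and from 7.93 to 9.62. Ly6a, which encodes SCA1, had no named probe set here. Two-sided limma tests with Benjamini-Hochberg adjustment over the 15348 genes were used throughout, with a threshold of 0.05, and all differences are log2 differences. Array medians lay between 5.74 and 5.85. Arrays with high B cell marker levels are described beside Rag2 and Dntt.

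Irradiation moved 5 of the 6 measurable members in the mean over both genotypes, where 16.5% of all genes tested were called. Dntt, Ikzf1, Satb1 and Tcf3 fell and Notch1 rose, while Ikzf3 did not pass the test. The falls were 1.33-fold to 2.32-fold, and the rise was 1.75-fold. The median log2 difference of the 6 members was -0.49, against 0.00 over all genes tested. Of all genes 6.9% rose and 9.6% fell in that comparison. In KO cells alone the test called 1 member, Ikzf1, as lower, where 5.94% of all genes were called, 2.74% as higher and 3.2% as lower. In WT cells alone it called 2 members, Ikzf1 and Satb1, as lower, where 4.83% of all genes were called, 2.13% as higher and 2.7% as lower. With the replicate number as a block over the WT arrays alone, 4 members were called in WT cells (3 lower, 1 higher), where 2111 of all genes tested were. At an unadjusted p under 0.05, 5 of 6 members passed in each genotype in the fit without a block. Of the 15348 genes tested, 3055 passed that threshold in KO cells and 3040 in WT cells. Irradiated and untreated arrays did not overlap for 4 of 6 members in KO cells, against 23.4% of all genes, and for 4 of 6 in WT cells, against 24.8%.

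**Figure D1:**
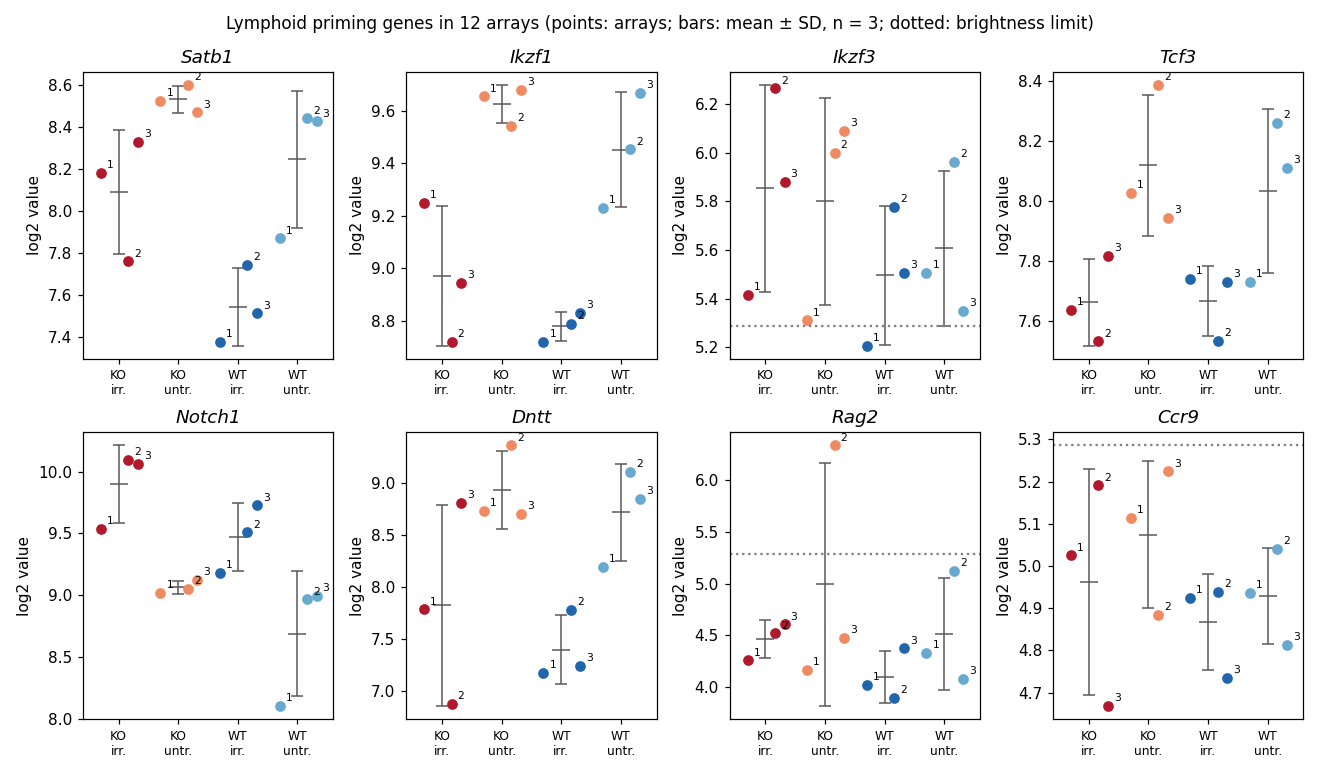
Log2 values of the 8 genes with a probe set of their own in the 12 arrays, by group (points are arrays, bars the mean and SD of 3 arrays, the dotted line the brightness limit of 5.29). Irradiated groups lie below untreated ones for Satb1, Ikzf1 and the group means of Dntt and Tcf3, and above them for Notch1. Rag2 and Ccr9 lie near or under the limit, except for 1 KO untreated array of Rag2 at 6.33.

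The promoters of 3 members are printed because these genes moved in different directions or by different amounts: Dntt fell most, Ikzf1 fell in both genotypes and Notch1 rose. Each window is the 250 bases before the RefSeq start on build GRCm38.p6, read 5′ to 3′ on the gene's strand, and capitals mark an E box (CANNTG, bound by E proteins) or the Ikaros core (GGGAA, or TTCCC on the other strand). The Dntt window lies at chr19:41029025-41029274 on the plus strand, the second Ikzf1 window at chr11:11689927-11690176 on the plus strand and the Notch1 window at chr2:26503823-26504072 on the minus strand.
Dntt: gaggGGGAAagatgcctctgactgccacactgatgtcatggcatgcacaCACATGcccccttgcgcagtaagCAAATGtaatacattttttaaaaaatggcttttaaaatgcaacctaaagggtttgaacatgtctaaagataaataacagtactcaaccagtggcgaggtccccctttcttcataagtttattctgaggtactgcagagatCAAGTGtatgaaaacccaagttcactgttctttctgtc
Ikzf1: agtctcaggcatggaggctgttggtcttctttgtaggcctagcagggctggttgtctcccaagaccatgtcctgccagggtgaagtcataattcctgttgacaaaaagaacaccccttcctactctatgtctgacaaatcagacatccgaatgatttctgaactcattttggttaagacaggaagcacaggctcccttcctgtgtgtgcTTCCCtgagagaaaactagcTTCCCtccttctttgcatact
Notch1: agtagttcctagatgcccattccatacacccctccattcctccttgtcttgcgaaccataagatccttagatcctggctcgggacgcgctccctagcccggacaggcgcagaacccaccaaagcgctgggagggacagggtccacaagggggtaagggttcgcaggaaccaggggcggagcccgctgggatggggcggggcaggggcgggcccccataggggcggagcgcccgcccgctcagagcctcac
The Dntt window holds 3 E boxes and 1 Ikaros core, the second Ikzf1 window 2 Ikaros cores and the Notch1 window neither motif. The first Ikzf1 window, at chr11:11685675-11685924, is not printed and holds 0 matches of either motif; the second was printed because it holds matches. Of the 13 windows found for the members, 5 belong to Satb1, some of them overlapping, and 2 to Ikzf1. Among the 13, 7 hold an E box, against 66.2% of 32851 windows of all genes, and 8 hold an Ikaros core, against 56.2%. The motif TGGGAA of RBPJ, the factor through which Notch acts, contains the Ikaros core and was in 2 of the 13 windows, against 21.6% of all. A match of letters is a description and says nothing of binding.

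Ikzf1 encodes Ikaros, a zinc finger factor that lymphoid development needs. Its log2 values were 9.25, 8.72 and 8.94 in irradiated KO cells, against 9.65, 9.54 and 9.68 in untreated KO cells. In WT cells they were 8.72, 8.79 and 8.83 after irradiation, against 9.23, 9.45 and 9.67 without it. The irradiated arrays lay below the untreated ones in both genotypes with no overlap. Ikzf1 fell by 0.65 in KO cells (SE 0.14, limma adjusted p = 0.0197) and by 0.67 in WT cells (SE 0.14, adjusted p = 0.0197), with a mean fall of 0.66 (95% interval -0.88 to -0.44, adjusted p = 0.000993), or 1.58-fold. Its pooled SD within groups was 0.178, close to the median of 0.182 over all genes tested.

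The mean fall of Ikzf1 was called in all 12 fits that left out 1 array. The calls within a genotype were less firm. In KO cells Ikzf1 was not called without untreated KO replicate 1 (adjusted p = 0.0696), 2 (0.0555) or 3 (0.064), nor without irradiated KO replicate 2 (0.0848) or 3 (0.0638). It was also lost there in a fit of the 6 KO arrays alone (0.0594) and without the 2 arrays of highest B cell level (0.138). In WT cells it was not called without untreated WT replicate 2 (adjusted p = 0.0756) or 3 (0.0963), nor without irradiated WT replicate 1 (0.0556), 2 (0.0513) or 3 (0.0575). The difference itself stayed between -0.79 and -0.53 in KO cells and between -0.78 and -0.56 in WT cells.

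Satb1 encodes a chromatin organiser known for lymphoid-biased stem cells and progenitors. On the log2 scale it was 8.18, 7.76 and 8.33 in irradiated KO cells, against 8.53, 8.60 and 8.47 in untreated KO cells. In WT cells they were 7.38, 7.74 and 7.51 after irradiation, against 7.87, 8.44 and 8.43 without it. The groups did not overlap in either genotype. Satb1 fell by 0.70 in WT cells (SE 0.18, limma adjusted p = 0.044), and its difference in KO cells was -0.44 (SE 0.18, adjusted p = 0.19). Over both genotypes the mean fall was 0.57 (SE 0.13, adjusted p = 0.00929), or 1.49-fold, and it was called without any 1 of the 12 arrays. The call in WT cells alone was lost without untreated KO replicate 1 (adjusted p = 0.0634), 2 (0.0623) or 3 (0.0612), untreated WT replicate 2 (0.178) or 3 (0.177), and irradiated WT replicate 1 (0.115), 2 (0.0512) or 3 (0.135). It was also lost in a fit of the WT arrays alone (0.0661), without the 2 arrays of highest B cell level (0.0601), without a brightness limit (0.0523) and with cyclic loess (0.0508).

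Tcf3 encodes the E proteins E12 and E47, which switch on early B cell genes. Irradiated KO cells had log2 values of 7.64, 7.53 and 7.82, against 8.03, 8.39 and 7.94 in untreated KO cells. They were 7.74, 7.53 and 7.73 in irradiated WT cells, against 7.73, 8.26 and 8.11 in untreated WT cells. The KO groups did not overlap, while in WT cells untreated replicate 1 lay within the irradiated arrays. The differences were -0.46 in KO cells (limma adjusted p = 0.12) and -0.37 in WT cells (adjusted p = 0.222), and over both genotypes Tcf3 fell by 0.41 (SE 0.11, adjusted p = 0.0246). That mean call was lost without untreated KO replicate 2 (adjusted p = 0.0629), irradiated KO replicate 2 (0.062), untreated WT replicate 2 (0.0654) or 3 (0.0609), or irradiated WT replicate 2 (0.0536).

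Ikzf3 encodes Aiolos, the Ikaros relative of later B cells. Irradiated KO arrays gave log2 values of 5.41, 6.26 and 5.88, against 5.31, 6.00 and 6.09 in untreated KO cells. They were 5.21, 5.78 and 5.51 in irradiated WT cells, against 5.51, 5.96 and 5.35 in untreated WT cells. All values lay near the brightness limit and the groups overlapped. The mean difference was -0.03 (95% interval -0.42 to 0.37, limma adjusted p = 0.94), and the mean fall of Ikzf1, 0.66, lies outside that interval. Within groups Ikzf3 varied more than 92.7% of all genes tested.

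Notch1 was the only member that rose. The log2 values were 9.54, 10.10 and 10.06 in irradiated KO cells, against 9.02, 9.05 and 9.12 in untreated KO cells. They were 9.18, 9.51 and 9.73 in irradiated WT cells, against 8.10, 8.97 and 8.99 in untreated WT cells. Every irradiated array exceeded every untreated array of its genotype, and untreated WT replicate 1 was the lowest of the 12. The mean rise was 0.81 (SE 0.16, 95% interval 0.45 to 1.17, limma adjusted p = 0.00554), called without any 1 of the 12 arrays. The single differences were 0.84 in KO cells (adjusted p = 0.0561) and 0.78 in WT cells (adjusted p = 0.0777). In KO cells it was called without irradiated KO replicate 1 (adjusted p = 0.0219) or untreated WT replicate 1 (adjusted p = 0.0148). With the replicate number as a block over the WT arrays alone, Notch1 rose in WT cells with an adjusted p of 0.00618.

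Ccr9 encodes the receptor for the thymic chemokine CCL25. The 3 replicates gave log2 values of 5.03, 5.19 and 4.67 in irradiated KO cells, against 5.11, 4.88 and 5.22 in untreated KO cells. They were 4.92, 4.94 and 4.74 in irradiated WT cells, against 4.94, 5.04 and 4.81 in untreated WT cells. All 12 values were under the brightness limit and the groups overlapped.

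Dntt encodes terminal deoxynucleotidyl transferase, an early mark of lymphoid priming. Its log2 values were 7.79, 6.88 and 8.81 in irradiated KO cells, against 8.73, 9.36 and 8.71 in untreated KO cells. They were 7.17, 7.78 and 7.25 in irradiated WT cells, against 8.20, 9.10 and 8.85 in untreated WT cells. The WT groups did not overlap, while irradiated KO replicate 3, at 8.81, lay above 2 of the untreated KO arrays. Dntt fell by 1.21 over both genotypes (SE 0.28, 95% interval -1.82 to -0.60, limma adjusted p = 0.0117), or 2.32-fold, and was called without any 1 of the 12 arrays. The differences were -1.11 in KO cells (adjusted p = 0.135) and -1.31 in WT cells (adjusted p = 0.083). Without irradiated KO replicate 3 the KO difference was -1.60 (adjusted p = 0.0217), and the WT difference was then called too (adjusted p = 0.0272), as it was without irradiated KO replicate 2 (0.0314). With the replicate block over the WT arrays alone the adjusted p for WT was 0.000613. Dntt had a pooled SD of 0.592 within groups, larger than that of 98.6% of genes.

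Rag2 lay near the array's dim range. Its log2 values were 4.26, 4.52 and 4.61 in irradiated KO cells, against 4.17, 6.33 and 4.48 in untreated KO cells. They were 4.03, 3.90 and 4.38 in irradiated WT cells, against 4.34, 5.12 and 4.08 in untreated WT cells. The one value above the limit was that of untreated KO replicate 2, and the next highest was that of untreated WT replicate 2.

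Both of these arrays, and irradiated KO replicate 3, had the highest mean levels of the B cell genes listed here, although the sort excluded B220-positive cells. Of 14 B cell genes fixed as markers, 13 had a named probe set and 12 were above the brightness limit, with Ms4a1 below it. Their mean log2 level ran from 6.69 to 8.07 in irradiated KO arrays, from 6.90 to 7.96 in untreated KO arrays, from 6.59 to 7.02 in irradiated WT arrays and from 6.60 to 7.35 in untreated WT arrays. Ebf1, a factor that specifies B cells, was 9.62 in irradiated KO replicate 3 and 9.51 in untreated KO replicate 2. It was 7.42 in untreated WT replicate 2 and between 5.32 and 6.58 in the other arrays. Igll1 and Blnk were also highest in these 2 KO arrays. Not every listed gene followed. Ptprc was 10.47 in untreated KO replicate 2 and 10.44 in irradiated KO replicate 3, the lowest value of each group. Vpreb1 and Cd22 ranged over 0.52 and 0.34 across the 12 arrays. Across the 12 arrays, which share irradiation and genotype groups, the correlation with the B cell level was 0.707 for Rag2, 0.631 for Dntt, 0.542 for Satb1, 0.510 for Tcf3, 0.508 for Ikzf3, 0.264 for Notch1 and 0.145 for Ikzf1. Without the 2 arrays farthest from the median it was 0.597 for Rag2, 0.550 for Dntt, 0.510 for Satb1, 0.536 for Tcf3, 0.536 for Ikzf3, 0.082 for Notch1 and 0.314 for Ikzf1. The part of these cells in the results was not tested. None of the 12 B cell genes above the limit passed the irradiation test in the mean (0 of 12 at an unadjusted p under 0.05). Of the 15348 genes tested, 4625 passed that unadjusted threshold. Irradiated KO replicate 3 and untreated KO replicate 2 were then left out, which leaves 10 arrays. In the mean 4 of the 6 members were still called (3 lower and 1 higher), namely Dntt, Ikzf1, Satb1 and Notch1. Tcf3 was not (limma adjusted p = 0.0635). Of the 15348 genes tested, 1403 were called in that fit, against 2532 with all arrays. Of 14 T cell genes, 12 had a named probe set and 8 were above the limit; Cd3e, Cd4 and Cd8a were below it.

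**Figure D2:**
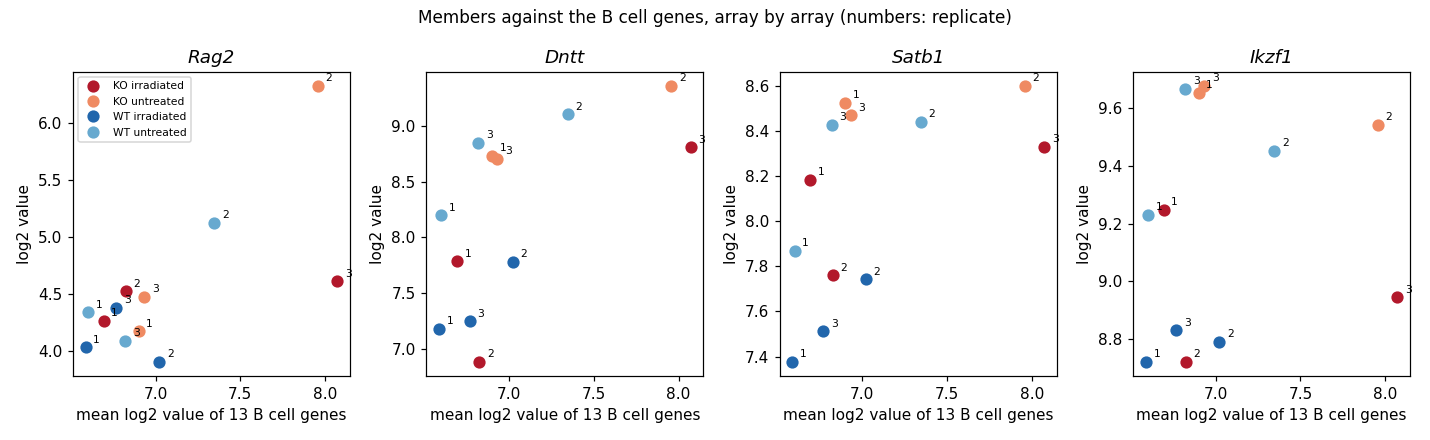
Log2 value of Rag2, Dntt, Satb1 and Ikzf1 (vertical) against the mean log2 level of 13 B cell genes (horizontal) in each of the 12 arrays, coloured by group and numbered by replicate. Untreated KO replicate 2 and irradiated KO replicate 3 stand to the right at 7.96 and 8.07, and Rag2 is highest in the first of them at 6.33.

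**Figure D3:**
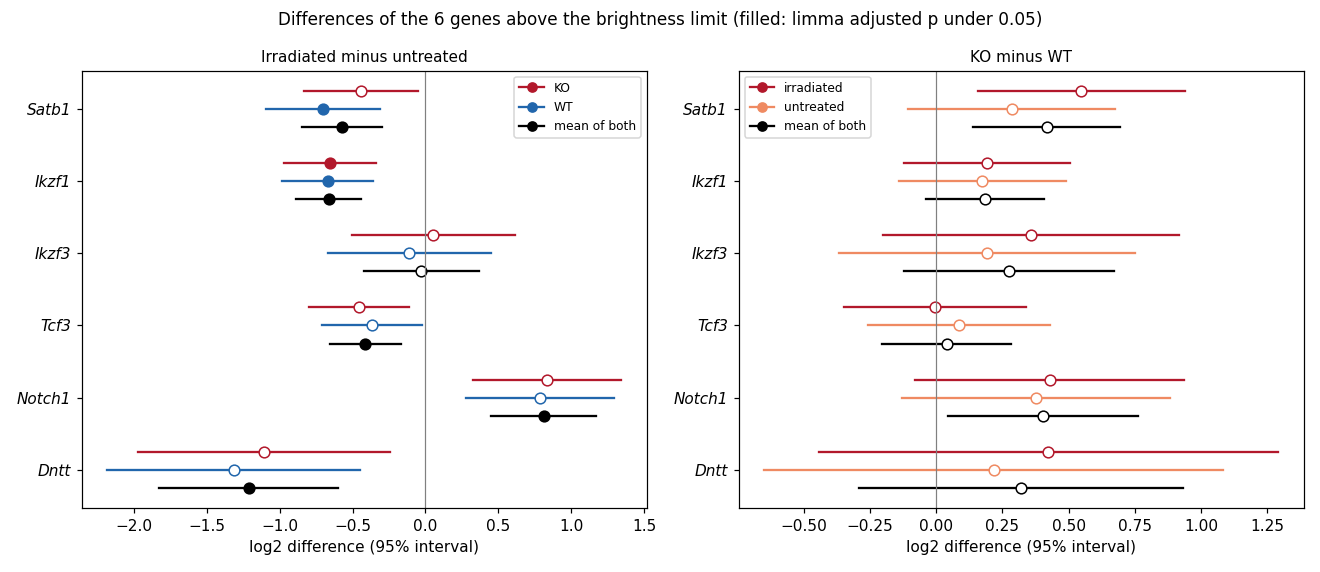
Log2 differences of the 6 measurable members with 95% intervals, irradiated minus untreated (left) and KO minus WT (right); filled points passed the limma test. On the left Satb1, Ikzf1, Tcf3 and Dntt lie below 0 and Notch1 above it in both genotypes, and the filled points are those of the mean for 5 genes, of both genotypes for Ikzf1 and of WT for Satb1. On the right no point is filled.

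No member passed the test between KO and WT cells. After irradiation the test called 0 of 6 members (1 at an unadjusted p under 0.05), without irradiation 0 of 6 (0 unadjusted) and in the mean over both doses 0 of 6 (2 unadjusted); 0.00652% of all genes, the single gene Zc3hc1, was called in each. At an unadjusted p under 0.05, 471 of the 15348 genes tested passed after irradiation, 330 without it and 635 in the mean over doses. By p, Satb1 was the member nearest to a difference after irradiation and in the mean over doses, and Notch1 without irradiation. Satb1 lay higher in every irradiated KO array than in every irradiated WT array, the lowest KO value being 7.76 and the highest WT value 7.74, and the same held without irradiation, where Notch1 also did not overlap. Groups did not overlap for 1 of 6 members after irradiation, against 6.4% of all genes, and for 2 of 6 without it, against 7.96%. The KO minus WT difference of Satb1 was 0.55 after irradiation (95% interval 0.16 to 0.94, limma adjusted p = 0.999) and 0.29 without it (adjusted p = 1). In the mean over doses it was 0.42 for Satb1 (95% interval 0.14 to 0.69, adjusted p = 1) and 0.40 for Notch1 (95% interval 0.04 to 0.76, adjusted p = 1). These differences share arrays with the irradiation comparisons.

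The irradiation effects of KO and WT cells did not differ detectably for any member (0 of 6 called by limma and 0 at an unadjusted p under 0.05, with 0% of all genes called). At that unadjusted threshold, 235 of the 15348 genes tested passed. The KO minus WT difference of the effects was 0.21 for Dntt (95% interval -1.02 to 1.43), 0.26 for Satb1 (-0.29 to 0.82), 0.05 for Notch1 (-0.67 to 0.77), 0.02 for Ikzf1 (-0.43 to 0.46), -0.09 for Tcf3 (-0.58 to 0.39) and 0.16 for Ikzf3 (-0.63 to 0.95). For Dntt the interval still allows differences larger than its own mean fall. The number of arrays, 3 per group, limits this precision.

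Of 18 early lymphoid receptors and regulators, 15 were tested, and 7 fell and 0 rose in the mean over both genotypes, with a median difference of -0.61; 9.6% of all genes fell and 6.9% rose in that comparison, which is also the background of the list counts that follow. Flt3, the receptor of a cytokine that lymphoid-primed progenitors need, fell by 1.13 (SE 0.11, limma adjusted p = 3.87e-05). Cd27, a receptor of multipotent progenitors, fell by 1.14 (adjusted p = 0.000248), and the transcription factors Mef2c and Myb fell by 0.74 (adjusted p = 0.000636) and 0.76 (adjusted p = 0.0015). Il7r, the interleukin-7 receptor of committed lymphoid progenitors, differed by -0.76 with an adjusted p of 0.119. Without the 2 arrays of high B cell level, 6 of these 15 genes fell and 0 rose, and without 1 array 5 to 7 fell.

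Of 16 genes listed for V(D)J recombination, 13 were tested, of which 7 fell and 0 rose, with a median of -0.32. Rag1 and Rag2 were not tested, and the list also holds general DNA break repair genes such as Atm and Xrcc6. Atm, the kinase that signals DNA breaks, fell by 0.86 (adjusted p = 3.89e-05), Hmgb2, a DNA-bending cofactor of the RAG proteins, by 0.78 (adjusted p = 0.00106), and Xrcc6, which encodes Ku70, by 1.01 (adjusted p = 0.00174), beside Dntt itself. Leaving out the 2 arrays of high B cell level gave 5 falls and 0 rises. Leaving out any 1 array gave 5 to 7 falls, and cyclic loess gave 5, with 0 rises in each.

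In the Notch pathway, 32 of 34 genes were tested, of which 8 rose and 2 fell with a median of 0.06. Notch3, a second Notch receptor, rose by 0.84 (SE 0.11, adjusted p = 0.00024) beside Notch1, and Adam17, a protease that can cut Notch, rose by 0.59 (adjusted p = 0.00444). Maml3, a coactivator of Notch, fell by 0.79 (adjusted p = 0.00381). Of all 15348 genes tested, 4625 had an unadjusted limma p under 0.05 in the mean over both genotypes. Of 7 Notch targets in the list (Hes1, Hes5, Hey1, Hey2, Heyl, Dtx1 and Nrarp), grouped after their values were seen, 0 passed the limma test and 1 had an unadjusted p under 0.05. That one was Hey2, with a difference of 0.29 (adjusted p = 0.0661), while Hes1 differed by 0.05 (adjusted p = 0.892), Dtx1 by -0.05 (adjusted p = 0.725) and Nrarp by -0.01 (adjusted p = 0.964). The count of rises was 5 without untreated KO replicate 1 or 2, irradiated KO replicate 3, untreated WT replicate 1 or irradiated WT replicate 3, and 4 without irradiated KO replicate 2 or untreated WT replicate 3. It was also 4 without the 2 arrays of high B cell level.

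Of 5 genes of the Ikaros family, Ikzf1 alone was called, and 2 fell without irradiated KO replicate 1, untreated WT replicate 1 or irradiated WT replicate 1, or with the replicate block. Of 11 E proteins, Id inhibitors and their partners tested, 3 fell and 0 rose: Tcf3, Cbfa2t3, a corepressor partner of E proteins, by 0.58 (adjusted p = 0.005) and Lyl1, a basic helix-loop-helix partner, by 0.92 (adjusted p = 0.00663). Without the 2 arrays of high B cell level 2 of the 11 fell, and without 1 array 2 to 4 did. With the replicate block within genotype 6 fell, although the numbers do not pair the KO arrays. Of 7 homing receptors, 2 fell, Itga4 by 0.64 (adjusted p = 0.000614) and Itgb7 by 0.62 (adjusted p = 0.00991), and Cd44 rose by 0.40 (adjusted p = 0.0364). Cd44 was not called without untreated KO replicate 2 or 3, or irradiated KO replicate 1 or 3. Nor was it called without untreated WT replicate 1 or 2, or irradiated WT replicate 1 or 3. Adjusted p in these fits lay between 0.0552 and 0.0843. The call of Cd44 was also lost with array medians subtracted (0.0576) and without the 2 arrays of high B cell level (0.113). Of Satb1 and its related chromatin partners, 8 were tested and Satb1 alone fell; without irradiated KO replicate 1, 2 fell. That count of 1 of 8 is near the 9.6% of all genes that fell.

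**Figure D4:**
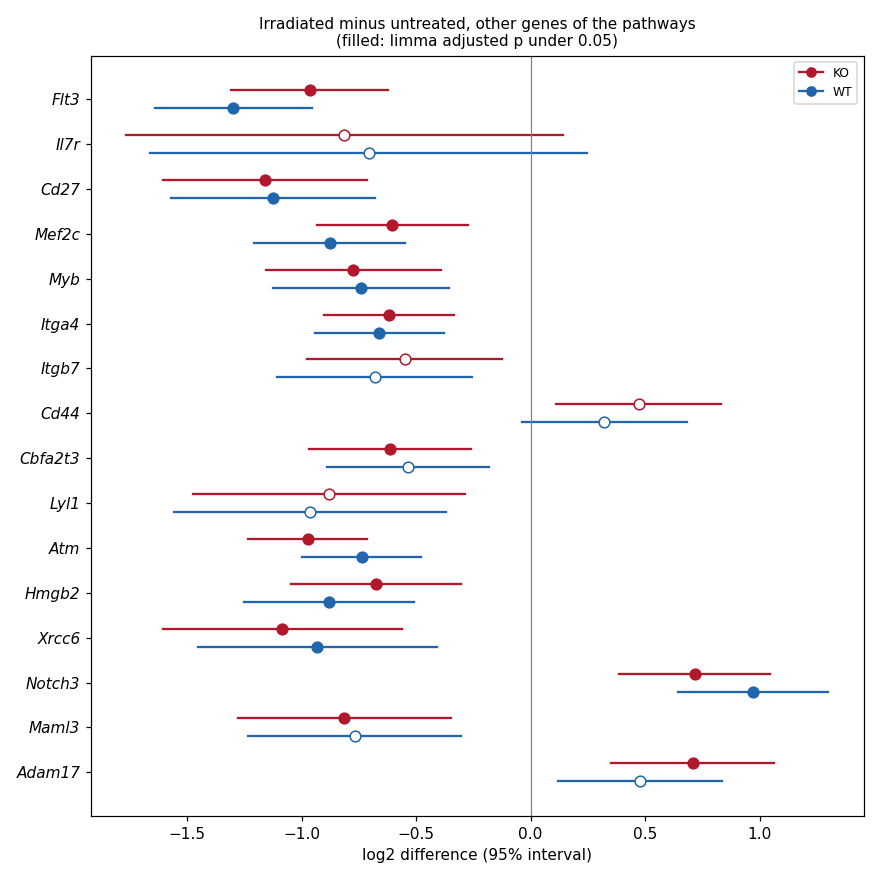
Log2 differences, irradiated minus untreated, of named genes of the pathway lists in KO and WT cells with 95% intervals; filled points passed the limma test within that genotype. Flt3, Cd27, Mef2c, Myb, Itga4, Atm, Hmgb2 and Xrcc6 lie below 0 and Notch3 above 0 with filled points in both genotypes.

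The members did not vary as one set. Over the 12 arrays Satb1 and Dntt correlated at 0.903, and at 0.879 once group means were removed. Satb1 and Ikzf1 correlated at 0.868 and Dntt and Ikzf1 at 0.813, but without group means these were 0.659 and 0.357. Ikzf1 and Notch1 correlated at -0.557, and at 0.158 without group means. The arrays share irradiation and genotype, so these are descriptions with no p. The genes most like a member over the 12 arrays were taken among all tested, excluding predicted genes. They were Itgb7 (0.971), Dock10 (0.938) and Dock8 (0.936) for Satb1. For Dntt they were Wdr76 (0.985), Ube2c and Cdc45 (0.966 each), and for Ikzf1 Chn2 (0.969), Itga4 (0.964) and Immt (0.961). For Notch1 they were Rfx7 (0.963), Gigyf2 (0.962) and Eya3 (0.957), for Tcf3 Xrcc3 (0.951), Clspn (0.945) and Mybl2 (0.942), and for Ikzf3 Osbpl9 (0.894), Prrt2 (0.867) and Phlpp1 (0.845).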

How the data were processed

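Affymetrix arrays measured RNA of 12 samples of sorted and pooled cells in 4 groups of 3, named by genotype and treatment in the sample titles. The deposited log2 values, 1 per array and probe set, came from the R package oligo and RMA, per the submitters' processing notes; their versions, the build and the annotation release are not stated there. RMA brings all arrays to 1 distribution and merges the probes of a set, so values compare 1 gene between arrays and not different genes.

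Of 41345 probe sets, 23521 carry 1 gene symbol, 1814 several and 16010 none; 23328 of the 23521 gene IDs matched the RefSeq table of GRCm38.p6, through which symbols were updated. A gene was tested if its brightest probe set lay above the 40th percentile of all deposited values in 3 or more arrays. One limma fit (3.58.1, R 4.3.3, lmFit and eBayes) over 12 arrays gave all comparisons, with Benjamini-Hochberg adjustment over 15348 genes; it was tested on simulated data. The median 95% half-width was 0.319 for a difference between single groups and 0.225 for a mean effect. For the difference of the irradiation effects it was 0.450. With 3 arrays a group, the smallest exact permutation p is 0.1.

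The members and lists were chosen with earlier results of these data known. Besides the members, the text names up to 4 passing genes of each pathway list by smallest p, always Flt3, Il7r and Zc3hc1, the 3 genes most like each member, and up to 3 marker genes of largest range. Promoter windows were planned with 50 bases after the start, and only the 250 bases before it were searched. For irradiated and untreated WT cells, correlations of deviations from group means were 0.420 to 0.491 between same-numbered arrays and negative between the others. The numbers were therefore taken to pair those samples, which the labels do not state. The main fit used no pairing. For untreated KO and WT cells the correlations of same-numbered arrays were 0.102 to 0.233. There KO replicate 3 with WT replicate 1 (0.136) and KO replicate 2 with WT replicate 3 (0.135) exceeded the lowest of them. The numbers thus do not clearly pair untreated KO and WT arrays. Alternatives were other brightness limits, array medians subtracted, cyclic loess, the mean of probe sets, a trended prior, only the arrays compared, replicate blocks and leaving out each array. A further pair was chosen after seeing the data: leaving out both arrays of highest B cell level, and the replicate block over WT arrays alone.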

Additional observations from a re-analysis of the deposited data

How the results depend on the processing

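In the mean over both genotypes, the number of members called was 4 to 5 without 1 array, against 5 with all. Over all genes, 1859 to 3414 were called without 1 array. Dntt, Ikzf1, Satb1 and Notch1 were called in all 12 fits without 1 array and all 9 other settings. The counts within a genotype depended on the setting. In KO cells 1 member was called, 2 with cyclic loess, with the replicate block and with the replicate block within genotype, 0 without the 2 arrays of highest B cell level, 0 to 2 without 1 array and 1 in the other settings, which with only the arrays compared was Notch1 and not Ikzf1. Notch1 in KO cells had adjusted p = 0.043 with cyclic loess, 0.0372 with only the arrays compared, 0.00824 with the replicate block and 0.00898 with it within genotype. In WT cells 2 were called, 1 without a brightness limit and with cyclic loess, 3 with the replicate block and with it within genotype, 4 with the replicate block over WT arrays only and 0 to 3 without 1 array. With only the arrays compared and without the 2 arrays of highest B cell level the 2 were Dntt and Ikzf1. Notch1 in WT cells had adjusted p = 0.0119 with the replicate block. In irradiated against untreated KO cells, same-numbered arrays correlated at 0.474, -0.239 and -0.122. In irradiated KO against WT cells they did so at 0.341, -0.289 and 0.284. The numbers therefore do not pair those samples. Across numbers, irradiated KO replicate 2 correlated at 0.517 with untreated KO replicate 3, and irradiated KO replicate 3 at 0.438 with untreated KO replicate 2. These values lie in or above the range of same-numbered WT arrays, and a fit paired in that way was not tested. Between untreated KO and WT cells the block by number changed no call of a member. The causes of the shifts in the counts were not tested. Over all genes, 911 were called in KO cells, 557 with only the arrays compared, 1390 with the replicate block within genotype, 283 without the 2 arrays of highest B cell level and 392 to 1573 without 1 array; 742 in WT cells, 1228 with the block within genotype, 2111 with the block over WT arrays only and 314 to 1040 without 1 array; and 2532 in the mean, 1403 without those 2 arrays. Differences that changed sign were small and never called. With array medians subtracted, Tcf3 differed by 0.016 between irradiated KO and WT cells. Without the 2 arrays of highest B cell level, Dntt differed by -0.069 between irradiated KO and WT cells and by -0.033 in the mean of both doses, and Tcf3 by -0.048 between untreated KO and WT cells and by -0.066 in the mean. The difference of the irradiation effects was then -0.071 for Dntt, -0.011 for Ikzf1 and -0.037 for Notch1, and the mean irradiation difference 0.014 for Ikzf3, -0.034 for Hes1 and 0.041 for Nrarp. Without 1 array, the differences ranged from -0.19 to 0.27 for Ikzf3 in KO cells, -0.25 to 0.067 in WT cells and -0.15 to 0.081 in the mean, from -0.069 to 0.90 for Dntt and -0.084 to 0.059 for Tcf3 between irradiated KO and WT cells, from -0.043 to 0.41 for Dntt and -0.067 to 0.20 for Tcf3 between untreated ones, and from -0.036 to 0.096 for Tcf3 in the mean of both doses. The difference of the irradiation effects ranged from -0.29 to 0.68 for Dntt, -0.12 to 0.14 for Ikzf1, -0.081 to 0.38 for Ikzf3, -0.10 to 0.34 for Notch1 and -0.20 to 0.061 for Tcf3, and the mean irradiation difference from -0.11 to 0.17 for Hes1 and -0.12 to 0.073 for Nrarp. The signal of Rag2 and Ccr9 near background limits what the arrays can show of them.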

Other observations

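Of all genes tested, 6.9% rose and 9.6% fell in the mean irradiation effect, beside which the counts of the lineage marker lists stand. At an unadjusted p under 0.05, 4625 of the 15348 genes passed in that effect. Of 9 erythroid genes tested, 6 fell and 0 rose in the mean over both genotypes (limma, adjusted over all genes), and their mean log2 level was 6.27 to 6.57 in irradiated KO arrays, 7.04 to 7.34 in untreated KO arrays, 6.26 to 6.40 in irradiated WT arrays and 6.77 to 7.04 in untreated WT arrays. Granulocyte and monocyte genes gave 0 calls of 11 (2 at an unadjusted p under 0.05), megakaryocyte genes 0 of 7 (2 unadjusted), mast cell and basophil genes 0 of 6 (1 unadjusted) and endothelial and stromal genes 0 of 7 (1 unadjusted). Of the LSK markers 2 of 8 fell, of the T cell genes 1 of 8 rose, of the NK and innate lymphoid genes 1 rose and 1 fell of 7, and of the plasmacytoid and dendritic genes 2 rose and 2 fell of 11.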
